A study of Mus musculus with 13 samples.

Results

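The replication-dependent histone genes were taken as the rows whose gene name begins with Hist1h, Hist2h, Hist3h or Hist4h in all 3 count tables, which gave 68 genes among the 22048 genes that the tables have in common. They comprise 6 linker histone H1 genes, 19 H2A, 18 H2B, 12 H3 and 13 H4 genes. Of these, 58 were detected, meaning at least 3 counts in at least 1 of the 13 libraries, and 9 were at 0 in every library. RNA was sequenced from developing and mature regulatory T cells (Tregs), which were enriched for CD4 on magnetic columns and then sorted, of C57BL6/J mice that carry the Foxp3rfp reporter. The mutants are labelled cRel-/-Foxp3rfp, that is, without c-Rel, an NF-kB subunit, and the wild-type (WT) mice are labelled cRel+/+Foxp3rfp. The stages are thymic pre-Tregs (3 cRel-/- and 2 WT libraries), thymic de novo Tregs (2 and 2) and splenic Tregs, labelled tTreg (2 and 2). The labels give no ages and do not say whether libraries of a group came from separate animals, so p-values measure the spread between these libraries only.

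Replication-dependent histones package newly copied DNA and are made mainly in S phase. Their genes lie in clusters, mostly lack introns, and are switched on together by cyclin E-CDK2 acting through NPAT. Their mRNAs usually end in a conserved stem-loop bound by SLBP instead of a poly(A) tail, although some of the genes also give polyadenylated mRNA in differentiated cells. The labels list total RNA and do not say whether libraries were selected for poly(A), so the values hold for what these libraries captured.

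The families are built from near-identical copies, which decides how far a single gene can be read. The pair on which the genotype results turn, Hist1h4m and Hist1h4n, both encode histone H4 and lie in the Hist1 cluster of chromosome 13 (GRCm38, exon positions as deposited): Hist1h4m (ENSMUSG00000069306) at chr13:21811746-21812147 on the plus strand and Hist1h4n (ENSMUSG00000069305) at chr13:21831767-21832196 on the minus strand. Their coding sequences were identical over all 309 bases in GENCODE M21. Hist1h4d, the most abundant histone gene, differed from both at 20 of 309 coding bases, and its longest stretch identical to them was 74 bases. The first 99 coding bases are shown for the pair and for Hist1h4d, because 16 of the 20 differences lie there, with capitals at the bases in which Hist1h4d differs.
Hist1h4m: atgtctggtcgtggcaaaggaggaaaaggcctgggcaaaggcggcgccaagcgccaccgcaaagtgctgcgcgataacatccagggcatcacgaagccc
Hist1h4d: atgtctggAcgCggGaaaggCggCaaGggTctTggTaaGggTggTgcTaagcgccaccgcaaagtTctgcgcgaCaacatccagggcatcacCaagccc

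The annotated transcripts of Hist1h4m and Hist1h4n differed at 1 of 402 aligned bases, G36A counted from the 5′ end of the Hist1h4m transcript with the Hist1h4m base first. RefSeq promoter windows of GRCm38.p6, which run from 250 bases before to 50 bases after the start, differed at 1 of 299 aligned bases, which is the same base. They are shown because they hold the 1 aligned base that tells the copies apart, in capitals, for Hist1h4m at chr13:21811496-21811795 (plus strand) and Hist1h4n at chr13:21832148-21832447 (minus strand).
Hist1h4m: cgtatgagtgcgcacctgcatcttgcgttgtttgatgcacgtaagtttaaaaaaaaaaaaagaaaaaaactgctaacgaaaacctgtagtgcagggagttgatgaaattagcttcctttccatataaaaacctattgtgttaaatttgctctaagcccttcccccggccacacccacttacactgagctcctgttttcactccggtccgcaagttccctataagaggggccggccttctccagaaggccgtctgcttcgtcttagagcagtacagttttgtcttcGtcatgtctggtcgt
Hist1h4n: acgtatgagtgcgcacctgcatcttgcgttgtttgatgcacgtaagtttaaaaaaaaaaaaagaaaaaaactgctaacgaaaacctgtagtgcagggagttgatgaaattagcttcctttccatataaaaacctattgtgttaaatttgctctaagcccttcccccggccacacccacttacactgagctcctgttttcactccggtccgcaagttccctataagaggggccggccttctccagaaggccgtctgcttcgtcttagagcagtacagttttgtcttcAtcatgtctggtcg

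In members, the histone stem-loop motif was searched on the sense strand of a representative annotated transcript, after the coding sequence. It was present in 39 of the 65 members with an annotated coding transcript. Other genes were searched over the full length of all their annotated transcripts, coding or not, and 12 of 55384 held it (0.0217%). The shares are therefore not measured in the same way. Several of the 26 members without a match have annotated transcripts that end within a few bases of the stop codon, so no match there says nothing about the gene. In 23 members the letters of the match were those of Hist1h1c, and the H4 matches shown differ from them within the stem. Leading members of each class with a match are shown, with the match in capitals.
Hist1h1c: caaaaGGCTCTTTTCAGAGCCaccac
Hist1h1e: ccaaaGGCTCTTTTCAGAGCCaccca
Hist1h2ae: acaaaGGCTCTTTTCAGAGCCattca
Hist3h2ba: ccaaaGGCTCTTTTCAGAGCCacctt
Hist1h3a: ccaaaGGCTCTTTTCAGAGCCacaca
Hist1h4d: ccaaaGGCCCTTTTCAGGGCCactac
Hist1h4c: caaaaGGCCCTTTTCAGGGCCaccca
Hist1h4n: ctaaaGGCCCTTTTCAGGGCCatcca

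Promoter windows were found for 62 members and searched on both strands. CCAAT stood in 53 of 62 (85.5%), against 37.4% of 32851 mouse promoters, and it was in every searched H1, H2A, H2B and H3 promoter but in 3 of 12 H4 promoters. TATAAA stood in 35 of 62 (56.5%, against 13.6%). The octamer ATTTGCAT was found in 7 of 18 H2A and 6 of 16 H2B promoters and in no H1, H3 or H4 promoter, against 1.74% of all promoters. AAACACA, a motif known from H1 promoters, stood in 5 of 6 H1 promoters, against 7.18% of all promoters. The NF-kB motif, searched because c-Rel is an NF-kB subunit, stood in 4 of 62 (6.45%, against 26.8%), and these were Hist1h2ac, Hist3h2a, Hist3h2ba and Hist1h3i. Neither Hist1h4m nor Hist1h4n held it in this window.

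How much of each transcript a read could place uniquely was described with windows of 50 bases. Of 65 members, 61 shared at least 1 such window with another gene, 34 shared more than 50% of them, and the median was 54.99%. H1 genes shared the least, with a median of 1.13%, and H2A genes the most, with 73.0%; H3 genes stood at 62.0%, H2B genes at 54.6% and H4 genes at 39.5%. All 5 members whose every window was shared, Hist2h2aa1, Hist2h2aa2, Hist2h2bb, Hist2h3b and Hist2h3c1, had 0 counts in all 13 libraries, as had 3 of the other 60. Hist2h2bb shared its windows with 0 other members, only with genes outside the set. The 12 members that shared under 20% of their windows had a median of 1594 counts over all libraries, and the 19 that shared over 80% had a median of 75. How long the reads were, and how reads with several alignments were counted, is not given in the sources used here. Counts of single copies are therefore uncertain wherever sharing is high, and sums over copies are given beside them.

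**Figure D1:**
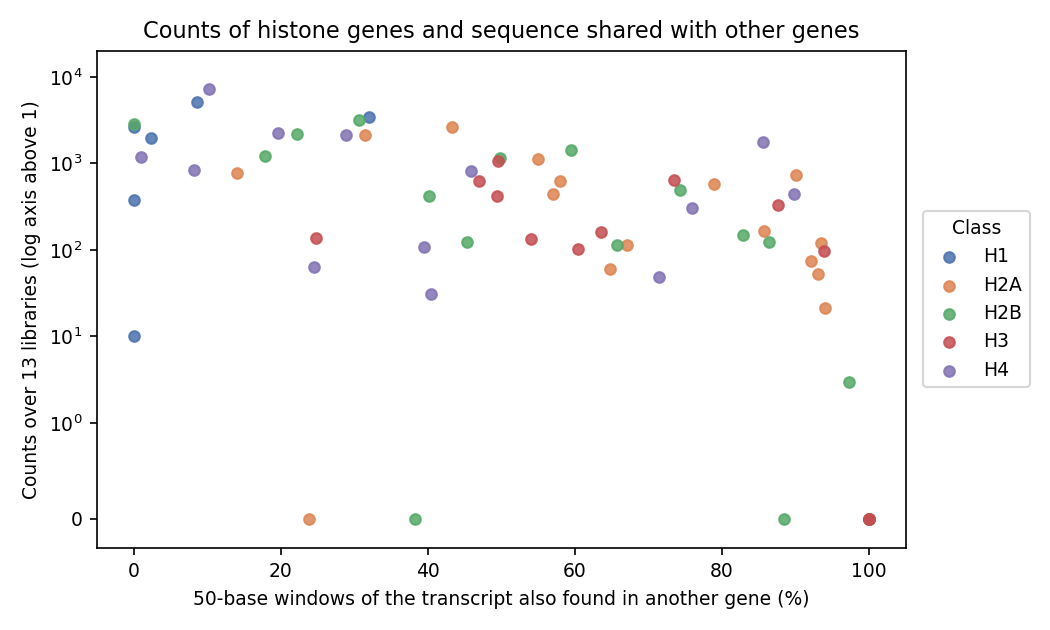
Counts of each of 65 histone genes summed over 13 libraries (log axis above 1) against the share of 50-base windows of its transcript that also occur in another gene (%), coloured by class. The 5 genes at 100% all have 0 counts.

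Among the members at 0 in every library were Hist1h2aa and Hist1h2ba, the testis H2A and H2B genes, and Hist1h1t, the testis H1, had 10 counts over all libraries. Hist1h2al and Hist1h2br were also at 0. The Hist1 cluster on chromosome 13 held 50 of the 58 detected genes, Hist2 on chromosome 3 held 5, Hist3 on chromosome 11 held 2, and Hist4 on chromosome 6 held 1. A further 3 rows with a matching name were listed in the pre-Treg table alone and were left out. They were Hist1h2aj, Hist3h2bb-ps and a second row named Hist2h2bb. That second row had 4, 5 and 6 counts in cRel-/- and 1 and 4 counts in WT pre-Tregs. The 0 counts given for Hist2h2bb therefore hold only for the row found in all 3 count tables.

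Library totals lay between 13656304 and 35114430 counts, and histone genes took 0.0111% to 0.0388% of them. Pre-Treg cRel-/- replicate 1 stands apart in that all of its 19440 counts above 0 are even numbers, against 46.7% to 49.98% in the other libraries. Pre-Treg cRel-/- replicate 2 stands apart in its histone level, so results that rest on it are given with and without it. It also has 29866696 counts, against 13656304 to 16809052 in the other pre-Treg libraries. Its description field is worded differently from theirs. Whether these differences bear on its histone level was not tested. Of the T cell markers, Cd3e lay between 809 and 1065 CPM (counts per 1000000 counts of the normalised library) in every library, and Foxp3 between 660 and 893 CPM in de novo and splenic Tregs and between 20.6 and 104 CPM in pre-Tregs. Rel, the targeted gene, was at 57.2, 54.6 and 66.9 CPM in cRel-/- and at 106 and 102 CPM in WT pre-Tregs, at 87.2 and 95.6 CPM in cRel-/- and at 98.6 and 96.2 CPM in WT de novo Tregs, and at 42.0 and 44.6 CPM in cRel-/- and at 45.6 and 54.7 CPM in WT splenic Tregs. Each cRel-/- library was below the WT libraries of its stage, by little in de novo and splenic Tregs. The deleted part of the gene is not given in the labels, so whole-gene counts do not check it, and the genotype rests on the labels. Marker sums of CD8 T and NK cells lay between 29.3 and 122 CPM and of B and plasma cells between 8.46 and 92.7 CPM. The thymic stroma list summed to between 192 and 311 CPM, and to between 225 and 301 CPM in splenic libraries. Nearly all of it was Pecam1, at 161 to 281 CPM, and Epcam, at 15.4 to 45.5 CPM. Foxn1, Krt5, Krt8, Psmb11, Pdgfra and Col1a1 were each at most 1.20 CPM, so this sum does not measure thymic stroma. Each stage has its own count table, so stage and table cannot be told apart, nor can the splenic stage and its tissue.

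Histone mRNA in these cells was led by a few genes. Over all libraries the 5 highest members made 38.0% of the summed histone CPM and the 10 highest 58.9%, with Hist1h4d alone at 12.7%. By class, H4 made 28.6%, H2B 25.6%, H1 22.7%, H2A 16.8% and H3 6.26%. Per kilobase of deposited gene length, Hist1h4d reached a mean level of 55.1 CPM per kb, followed by the H2A gene Hist1h2ae at 17.3, the H4 gene Hist1h4c at 15.3, the linker histone gene Hist1h1e at 13.1 and the H2B gene Hist1h2bc at 12.9 CPM per kb. The highest H3 gene, Hist1h3a, stood at 5.81 CPM per kb.

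The summed level of all 68 genes was 179, 408 and 166 CPM in cRel-/- and 112 and 125 CPM in WT pre-Tregs. It was 129 and 160 CPM in cRel-/- and 161 and 134 CPM in WT de novo Tregs. In splenic Tregs it was 161 and 156 CPM in cRel-/- and 159 and 171 CPM in WT. The genotypes overlapped in de novo and splenic Tregs, and in pre-Tregs all 3 cRel-/- libraries were above both WT libraries, with replicate 2 far above the rest. The mean sum was 251 ± 136 CPM in cRel-/- (SD, n = 3) and 119 ± 9.32 CPM in WT pre-Tregs (SD, n = 2), a ratio of 2.11, which was 1.45 without replicate 2. In de novo Tregs the ratio of cRel-/- over WT was 0.984 and in splenic Tregs 0.961. These sums carry no test. In bulk libraries, fewer cells that make a message and less of it per cell cannot be told apart.

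**Figure D2:**
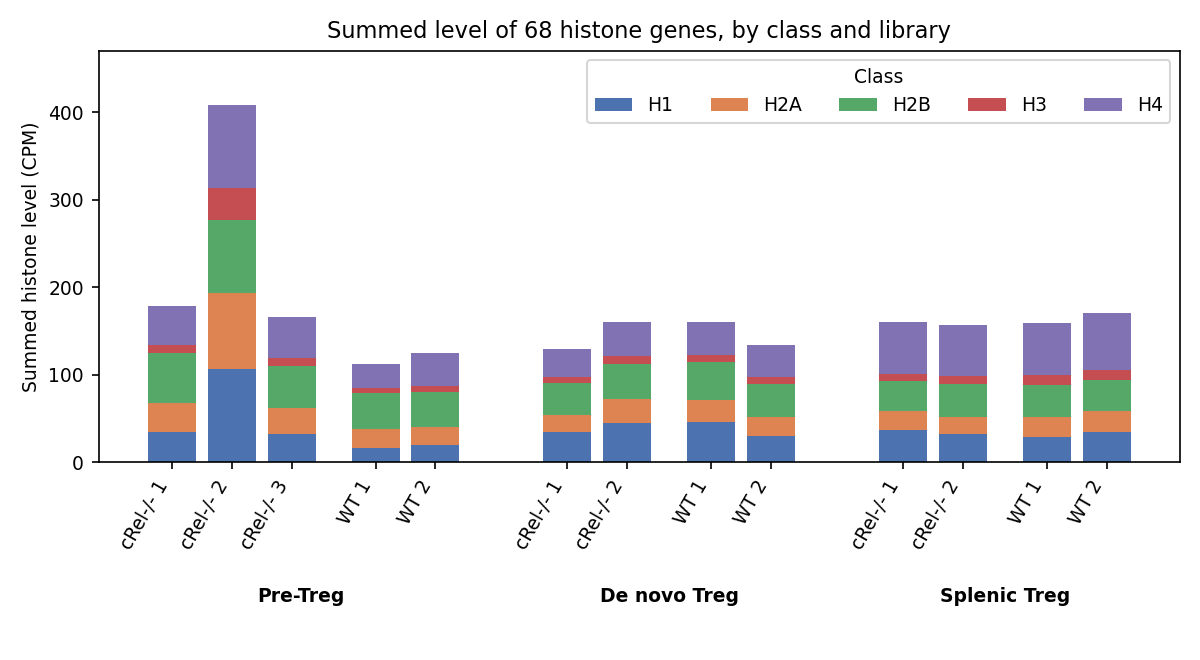
Summed level of the 68 histone genes in each library (CPM), stacked by class, with cRel-/- libraries left of WT at each stage. Pre-Treg cRel-/- replicate 2 reaches 408 CPM, and the other 12 libraries lie between 112 and 179 CPM. CPM was scaled within each stage, so the stages are not scaled to each other.

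The clearest genotype difference was in Hist1h4m, which was all but missing from the cRel-/- libraries at every stage. Hist1h4m had 0 and 0 counts in cRel-/- and 71 and 35 counts in WT de novo Tregs. In splenic Tregs it had 1 and 1 counts in cRel-/- and 146 and 177 counts in WT. In pre-Tregs, where it was too low for the test, it had 0, 3 and 0 counts in cRel-/- and 4 and 9 counts in WT. The genotypes did not overlap at any of the 3 stages. It was at least 16.4-fold lower in cRel-/- than in WT de novo Tregs, taking the floor of 3 counts per library and the mean of the WT libraries, or 10.6-fold without WT replicate 1 and 22.2-fold without WT replicate 2, and passed the edgeR quasi-likelihood test with Benjamini-Hochberg adjustment (adjusted p = 0.00194). In splenic Tregs the ratio of cRel-/- over WT was 0.00623 (exact 95% interval for counting error only, 0.000751 to 0.0227), with an adjusted p of 0.00316 in the same test. In pre-Tregs the ratio was 0.101 (0.0185 to 0.367, counting error only), with no test. With 1 genotype coefficient over all stages the adjusted p was 0.000721. Adjusted p values stayed under the threshold of 0.05 in each of the 10, 11 and 20 alternative settings run for de novo Tregs, splenic Tregs and all stages, with values up to 0.00977, 0.0135 and 0.0131. Hist1h4m entered the de novo and splenic tests through its WT libraries alone, since its cRel-/- libraries were under the count filter.

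Its near-identical copy Hist1h4n was not missing. Hist1h4n had 418 and 394 counts in cRel-/- and 168 and 220 counts in WT splenic Tregs. It had 78 and 135 counts in cRel-/- and 56 and 92 counts in WT de novo Tregs, and 16, 152 and 15 counts in cRel-/- and 9 and 7 counts in WT pre-Tregs. The genotypes were apart in splenic Tregs and pre-Tregs and overlapped in de novo Tregs. In splenic Tregs Hist1h4n rose in cRel-/-, at 11.9 and 12.2 CPM against 5.04 and 6.39 CPM in WT, a log2 fold change of 1.08 (SE 0.19, edgeR adjusted p = 0.0457). This call was lost without WT replicate 1, where the log2 fold change was 0.92 and edgeR's adjusted p 0.113, and in the fit of 6 group means to all 13 libraries, where the adjusted p was 0.793. Over the 11 alternatives of that result the adjusted p ran between 5.71e-05 and 0.793, with 9 under the threshold. In de novo Tregs its log2 fold change was 0.63 (SE 0.34, edgeR adjusted p = 0.377), and in pre-Tregs 2.04 (SE 0.94, edgeR adjusted p = 0.720).

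Taken as 1 unit, the pair did not separate the genotypes in de novo Tregs or pre-Tregs. The pair had 78 and 135 counts in cRel-/- and 127 and 127 counts in WT de novo Tregs. In pre-Tregs there were 16, 155 and 15 counts in cRel-/- and 13 and 16 counts in WT. That was 0.958, 5.46 and 0.871 CPM in cRel-/- and 0.964 and 1.16 CPM in WT, so the pair overlapped between the genotypes there. In splenic Tregs it had 419 and 395 counts in cRel-/- and 314 and 397 counts in WT, or 11.9 and 12.3 CPM in cRel-/- and 9.41 and 11.5 CPM in WT. The splenic groups did not overlap in CPM but lay close, with a ratio of 1.15 of cRel-/- over WT means, against 2.11 for Hist1h4n alone in summed counts per library size. Hist1h4m made 0% to 1.94% of the pair's counts in the 7 cRel-/- libraries and 27.6% to 56.3% in the 6 WT libraries. In splenic Tregs its share was 0.239% and 0.253% in cRel-/- (exact 95% upper bounds 1.32% and 1.402%) and 46.5% and 44.6% in WT (lower bounds 40.9% and 39.6%). In de novo Tregs the 0 counts in cRel-/- have exact 95% upper bounds of 4.62% and 2.70%, and the floor of 3 counts over the pair's total gives 3.85% and 2.22%. The split between the copies in a count table rests on the 1 base that separates the aligned transcripts, on what lies outside the alignment and on how reads were assigned, and it was not tested on reads. The H4 sum without the pair was 46.4 ± 1.28 CPM in cRel-/- and 51.8 ± 2.56 CPM in WT splenic Tregs (SD, n = 2 each).

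**Figure D3:**
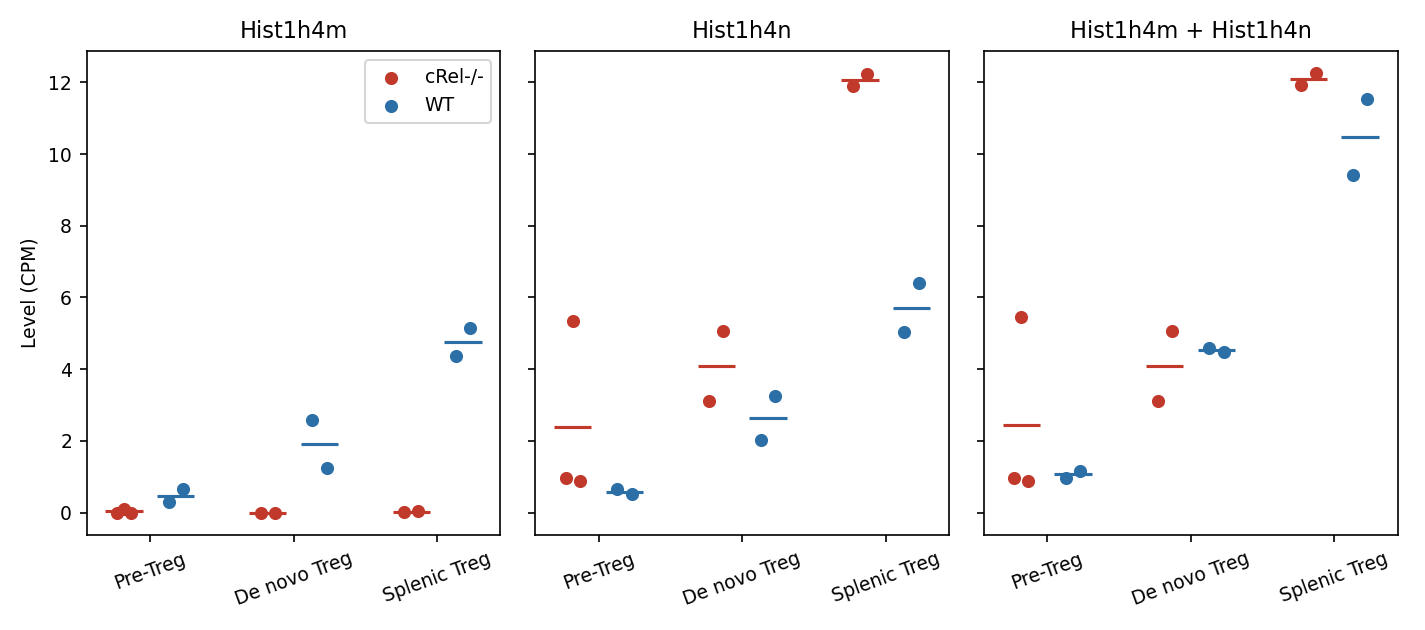
Levels (CPM) of Hist1h4m, Hist1h4n and their sum in each library (points) with group means (lines), cRel-/- left of WT at each stage. Hist1h4m lies near 0 in all cRel-/- libraries, while the sum of the pair reaches 11.9 and 12.3 CPM in cRel-/- and 9.41 and 11.5 CPM in WT splenic Tregs. CPM was scaled within each stage, so the stages are not scaled to each other.

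A second pair of copies, the H2A genes Hist1h2ao and Hist1h2ap, was identical over all 452 aligned transcript bases. Hist1h2ao, which lies beside Hist1h4m as Hist1h2ap lies beside Hist1h4n, had 12 and 6 counts in cRel-/- and 24 and 33 counts in WT splenic Tregs. Its share of the pair was 57.1% and 66.7% in cRel-/- and 82.8% and 71.7% in WT, with exact 95% intervals that overlap between the genotypes. Its log2 fold change in splenic Tregs was -1.65 (SE 0.65, edgeR adjusted p = 0.307).

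In splenic Tregs, 1 member rose and 1 fell among the 50 tested, Hist1h4n and Hist1h4m, and 1.37% of the 12264 genes tested were called (0.612% higher and 0.758% lower). The median log2 fold change of cRel-/- over WT was -0.27 among the tested members and 0.00 among all genes, with 20 members above 0 and 30 below. Members whose 4 libraries did not overlap were 22 lower in cRel-/- (44.0%, against 23.3% of all genes) and 12 higher (24.0%, against 23.1%). The class medians lay on both sides of 0: the median was -0.39 over 12 H2A genes and -0.42 over 9 H3 genes, and 0.36 over 11 H4 genes and 0.12 over 13 H2B genes. The summed H3 level was 7.85 and 8.54 CPM in cRel-/- and 11.1 and 11.4 CPM in WT. The summed H2A level was 20.9 and 19.3 CPM in cRel-/- and 23.1 and 25.0 CPM in WT. Hist1h3b, Hist1h3g, Hist1h2bh and Hist1h4m passed the filter through WT alone, and Hist1h2bl and Hist1h4j through cRel-/- alone, so the medians over tested members are a description.

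Hist1h4d, the leading H4 gene, was at 17.8 and 14.4 CPM in cRel-/- and 25.5 and 28.9 CPM in WT splenic Tregs. The genotypes were apart, with a log2 fold change of -0.76 (SE 0.16) and an edgeR adjusted p of 0.0679. It did pass with DESeq2, without the count filter, without either cRel-/- replicate, and with the replicate numbers or crossed pairs as a block. Hist1h1b, a linker histone gene, was at 2.02 and 0.75 CPM in cRel-/- and 3.15 and 4.07 CPM in WT, with a log2 fold change of -1.38 (SE 0.49, edgeR adjusted p = 0.253). Hist1h1c, another linker histone gene, was at 19.1 and 17.9 CPM in cRel-/- and 11.9 and 16.1 CPM in WT, with a log2 fold change of 0.40 (SE 0.18, edgeR adjusted p = 0.365). The H1 genes thus stood on both sides of 0 in the same libraries. The largest other differences were in low genes: Hist1h4j had 14 and 17 counts in cRel-/- and 4 and 5 in WT, Hist1h3g 6 and 4 in cRel-/- and 26 and 18 in WT, and Hist1h2bh 2 and 6 in cRel-/- and 23 and 11 in WT. The count of called members moved when 1 splenic library was left out, but such a fit keeps only 1 library of that genotype.

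Genes of S phase and mitosis give the frame for the splenic values. Of 24 S phase genes all had a log2 fold change below 0 in splenic Tregs, with a median of -0.84, and 4 fell: Tk1, Tyms, Gins1 and Gins2. Of 20 G2 and mitosis genes all were below 0, with a median of -1.26, and 11 fell, among them Mki67, a proliferation marker (44.3 and 30.5 CPM in cRel-/-, 80.1 and 91.6 CPM in WT; log2 fold change -1.20, SE 0.18, edgeR adjusted p = 0.0315). The summed S phase level was 1919 and 1280 CPM in cRel-/- and 2550 and 2761 CPM in WT, while the difference between the mean histone sums was less than the SD of the WT libraries. Slbp, which binds the stem-loop, was at 106 and 97.6 CPM in cRel-/- and 126 and 137 CPM in WT (log2 fold change -0.37, SE 0.11, edgeR adjusted p = 0.165). Pcna, the replication clamp gene, was at 68.2 and 63.4 CPM in cRel-/- and 85.4 and 88.4 CPM in WT (log2 fold change -0.40, SE 0.11, edgeR adjusted p = 0.136). H2afz, a replication-independent H2A variant gene, was at 102 and 128 CPM in cRel-/- and 119 and 119 CPM in WT. The S phase sum, Slbp and Pcna were lower in level in both cRel-/- libraries than in either WT library, and H2afz overlapped. Npat, the activator of histone genes, was at 45.7 and 28.8 CPM in cRel-/- and 40.0 and 37.1 CPM in WT. Myeloid and dendritic cell markers summed to 32.1 and 4.38 CPM in cRel-/- and 39.9 and 77.3 CPM in WT splenic libraries. Markers of B and plasma cells summed to 92.7 and 60.2 CPM in cRel-/- and 40.6 and 50.1 CPM in WT, and 1 of 7 rose, Cd79b (log2 fold change 0.66, SE 0.11, edgeR adjusted p = 0.0435). Markers of CD8 T and NK cells summed to 38.4 and 29.3 CPM in cRel-/- and 47.5 and 45.9 CPM in WT, and 0 of 7 were called in edgeR's test. The groups did not overlap in any of these 3 sums, and their part in the splenic values was not tested. Each marker of these lists had counts in some library, although a second row named Itgam was at 0 in all libraries. Of 21 genes of histone transcription and mRNA processing 0 passed in edgeR's test, and of 16 histone chaperone and assembly genes 1 fell, Asf1b (log2 fold change -0.97, SE 0.17, edgeR adjusted p = 0.0425). Among 9 tested replication-independent histone genes, which are expressed outside S phase too, 1 fell, the centromeric H3 gene Cenpa (log2 fold change -0.64, SE 0.11, edgeR adjusted p = 0.0401).

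**Figure D4:**
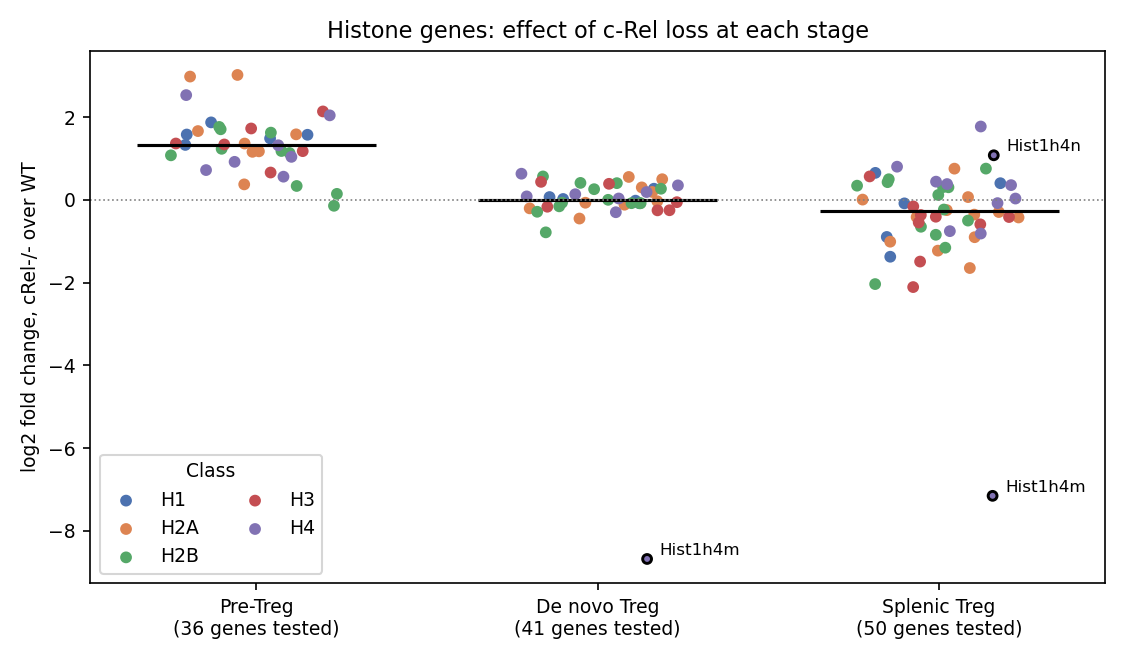
Log2 fold change of cRel-/- over WT for each tested histone gene at each stage, coloured by class, with the median as a line and the called genes ringed and named. Members lie mostly above 0 in pre-Tregs (median 1.33) and around 0 in de novo Tregs; the fitted position of Hist1h4m in de novo Tregs depends on how 0 counts are handled.

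In de novo Tregs Hist1h4m was the 1 member called among 41 tested, where 6.46% of the 11855 genes tested were called (2.92% higher and 3.54% lower). The median log2 fold change was 0.00 among the tested members and 0.00 among all genes, with 21 members above 0 and 20 below. Members whose libraries did not overlap were 10 higher in cRel-/- (24.4%, against 22.9% of all genes) and 2 lower (4.88%, against 24.6%). Leaving Hist1h4m aside, the values ran between -0.79 for the H2B gene Hist1h2bn and 0.63 for Hist1h4n, and neither passed. Hist1h2ac, an H2A gene, was at 2.47 and 3.71 CPM in cRel-/- and 2.03 and 2.18 CPM in WT (log2 fold change 0.55, SE 0.33, edgeR adjusted p = 0.434). Hist3h2a, another H2A gene, was at 4.14 and 5.77 CPM in cRel-/- and 8.52 and 5.07 CPM in WT (log2 fold change -0.45, SE 0.28, edgeR adjusted p = 0.462). Hist1h4d was at 11.3 and 12.97 CPM in cRel-/- and 17.2 and 12.7 CPM in WT, and these groups overlap. Of the S phase list 1 of 24 rose, Rrm2, which makes deoxynucleotides (113 and 107 CPM in cRel-/-, 89.8 and 80.7 CPM in WT; log2 fold change 0.37, SE 0.09, edgeR adjusted p = 0.0294). Markers of erythroid cells and platelets summed to 0.597 and 0.937 CPM in cRel-/- and 105 and 2.92 CPM in WT de novo libraries, with 0 of the 8 at 0 in all libraries. Of 3 tested, 2 fell in edgeR's test. Of 4 tested B and plasma cell markers 1 rose and 1 fell, and of 6 tested CD8 T and NK cell markers 1 fell. Of 3 tested genes of the thymic stroma list 2 rose, and of 7 tested myeloid and dendritic cell markers 0 were called. The part of all these markers in the de novo values was not tested. Ccne1, a cyclin E gene, also rose (log2 fold change 0.57, SE 0.11, edgeR adjusted p = 0.0120), as did Asf1b (0.43, SE 0.10, edgeR adjusted p = 0.0281).

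In pre-Tregs the levels of most histone genes were higher in cRel-/-, but 0 of the 36 tested members passed edgeR's test, and 0% of the 14746 genes tested were called in either direction. The log2 fold change was above 0 in 35 of 36 members, with a median of 1.33, against 0.03 over all genes. The smallest adjusted p among the members was 0.552 in edgeR's test. DESeq2 called 1 member, Hist1h1c, and limma-voom called 0. All 3 cRel-/- libraries were above both WT libraries in 21 of 36 members (58.3%, against 13.3% of all genes), and the reverse held for 0 members (against 13.7%). Hist1h2ai, Hist1h2ak, Hist1h2bh, Hist1h3f and Hist1h3i passed the filter through cRel-/- alone. Many members share sequence and all share the same libraries, so they are not independent of each other.

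By class, the summed H1 level was 35.3, 107 and 32.8 CPM in cRel-/- and 16.8 and 20.5 CPM in WT pre-Tregs. The summed H4 level was 44.5, 94.6 and 46.1 CPM in cRel-/- and 26.9 and 37.6 CPM in WT. The summed H2B level was 56.7, 83.1 and 48.6 CPM in cRel-/- and 41.2 and 39.9 CPM in WT. All classes were higher in each cRel-/- library than in either WT library, H2A (32.9, 87.3 and 29.1 CPM in cRel-/-, 21.6 and 19.6 CPM in WT) and H3 (9.35, 36.3 and 9.18 CPM in cRel-/-, 5.71 and 7.84 CPM in WT) included. Hist1h1c was at 13.2, 20.4 and 11.5 CPM in cRel-/- and 4.67 and 5.45 CPM in WT, with a log2 fold change of 1.57 (SE 0.34, edgeR adjusted p = 0.552). Hist1h4d was at 27.2, 50.2 and 26.8 CPM in cRel-/- and 15.4 and 21.5 CPM in WT, with a log2 fold change of 0.92 (SE 0.34, edgeR adjusted p = 0.720). Both genes were above WT in each cRel-/- library. Larger log2 fold changes stood in low members: 3.02 (SE 1.12) for Hist1h2ak and 2.98 (SE 1.17) for Hist1h2ai, both H2A genes, and 2.53 (SE 0.87) for the H4 gene Hist1h4h, each with an edgeR adjusted p of 0.720. Hist1h2ai was at 0.839, 9.30 and 1.10 CPM in cRel-/- and 0.519 and 0.436 CPM in WT, so that 1 library made most of its mean. Hist1h1b was at 10.4, 39.1 and 8.60 CPM in cRel-/- and 5.34 and 5.30 CPM in WT (log2 fold change 1.87, SE 0.67, edgeR adjusted p = 0.720). Hist1h2ae, the leading H2A gene, was at 6.95, 34.3 and 9.64 CPM in cRel-/- and 5.19 and 5.59 CPM in WT. Hist1h3a, the leading H3 gene, was at 2.52, 10.9 and 2.32 CPM in cRel-/- and 2.08 and 2.11 CPM in WT. In Hist1h2ai, Hist1h1b, Hist1h2ae and Hist1h3a the groups did not overlap, and replicate 2 was far above the other cRel-/- libraries. Hist2h2be, a long H2B gene, was at 20.4, 12.1 and 16.6 CPM in cRel-/- and 18.02 and 11.5 CPM in WT, and these groups overlap.

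The size of the pre-Treg difference rested in large part on cRel-/- replicate 2. Its histone sum was 2.37 times the mean of the other cRel-/- libraries, and it was the highest of the 5 pre-Treg libraries in 29 of 36 tested members, against 34.9% of all genes. The excess went with deposited gene length and also with cluster, and the 2 were not separated. In the Hist1 cluster the summed level of replicate 2 was 2.88 times the mean of the other cRel-/- libraries. The ratio was 0.803 in Hist2, 0.975 in Hist3 and 1.25 in Hist4. Of the members over 1000 bases, Hist2h4, Hist3h2a, Hist2h2be and Hist4h4 lie outside Hist1. Genes outside the histone set were not compared by length. Over 18 members of up to 500 bases the log2 ratio of replicate 2 to the other cRel-/- libraries had a median of 1.98, and it was the highest library in all 18. Over 12 members of over 500 and up to 1000 bases the median was 1.36, and over 6 members longer than 1000 bases it was 0.04, with 1 of the 6 highest in that library. Without replicate 2, the other cRel-/- libraries had a median log2 ratio of 0.64 to WT over the 36 members, and both lay above both WT libraries in 21 of 36, against 20.3% of all genes. That median was 0.63, 0.64 and 0.73 in the short, middle and long members. Without replicate 2 edgeR's test called 0 members.

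**Figure D5:**
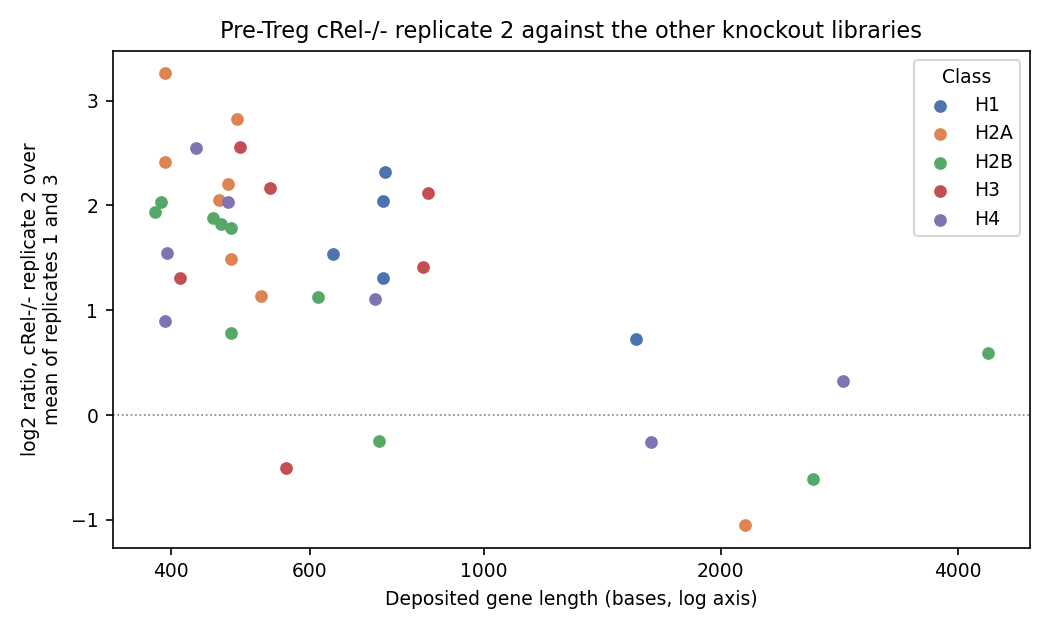
Log2 ratio of pre-Treg cRel-/- replicate 2 to the mean of cRel-/- replicates 1 and 3 for each of 36 tested histone genes, against deposited gene length (bases, log axis), coloured by class. Short genes lie high (median 1.98 up to 500 bases) and genes over 1000 bases lie around 0 (median 0.04).

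Other genes of the cell cycle also stood at higher levels in cRel-/- pre-Tregs. The summed level of 24 S phase genes was 4709, 5232 and 4584 CPM in cRel-/- and 3331 and 3634 CPM in WT. All 24 had a log2 fold change above 0, with a median of 0.52, and 0 were called in edgeR's test. The summed G2 and mitosis level was 3252, 2990 and 2701 CPM in cRel-/- and 2715 and 2204 CPM in WT, and the lowest cRel-/- library was just below the highest WT library. All 20 of these genes had a log2 fold change above 0 too, with a median of 0.26, and 0 were called in edgeR's test. Slbp was at 211, 213 and 177 CPM in cRel-/- and 159 and 166 CPM in WT, and Npat at 75.0, 45.7 and 69.3 CPM in cRel-/- and 77.4 and 63.7 CPM in WT. The 7 marker genes of immature thymocytes summed to 1246, 342 and 688 CPM in cRel-/- and 233 and 459 CPM in WT, and the groups overlapped. None of these markers was at 0 in all libraries. Their part in the histone difference was not tested.

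With 1 genotype coefficient over the 3 stages, 1 of 53 tested members was called, Hist1h4m, where 0.85% of the 13058 genes tested were called (0.314% higher and 0.536% lower). A joint test of whether the genotype effect differs between stages called 0 of 53 members in edgeR, where 0.161% of genes were called. For Hist1h4d this test gave an adjusted p of 0.155, the lowest among the members. The larger values in pre-Tregs than at the later stages are thus not shown to differ by that test.

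Between stages, the WT sum was 161 and 134 CPM in de novo Tregs and 112 and 125 CPM in pre-Tregs. CPM values were scaled within each stage, from totals over 47729 genes in pre-Tregs and 22048 genes at the later stages. Levels of different stages, here and below, were therefore not scaled to each other, unlike the stage tests. In WT, 8 members rose and 2 fell in de novo Tregs over pre-Tregs among 53 tested, and 30.7% of all genes were called (16.1% higher and 14.7% lower). Those that rose were the linker genes Hist1h1c and Hist1h1d, the H2A gene Hist2h2ac, the H2B gene Hist1h2bg and the H4 genes Hist1h4c, Hist1h4m, Hist1h4n and Hist2h4. Those that fell were Hist2h2be and Hist1h4j, the second with 0 and 0 counts in de novo Tregs and 1 and 4 in pre-Tregs. Hist1h1c was at 19.5 and 12.8 CPM in WT de novo Tregs and 4.67 and 5.45 CPM in WT pre-Tregs (log2 fold change 1.79, SE 0.31, edgeR adjusted p = 0.00176). It passed in each of 20 alternative settings. The other calls were fragile: the count was 1 without pre-Treg WT replicate 1, 2 without de novo WT replicate 1, 3 without either other WT library of these stages, 4 or 5 without any 1 de novo cRel-/- or splenic library, and 15 without pre-Treg cRel-/- replicate 2. Of 20 G2 and mitosis genes 17 fell and 0 rose in the same comparison, and of 24 S phase genes 12 fell and 0 rose.

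In cRel-/-, 1 member rose and 6 fell in de novo Tregs over pre-Tregs among 53 tested, and 32.4% of all genes were called (15.4% higher and 17% lower). Hist1h4d was at 11.3 and 12.97 CPM in de novo cRel-/- Tregs and 27.2, 50.2 and 26.8 CPM in cRel-/- pre-Tregs (log2 fold change -1.39, SE 0.28, edgeR adjusted p = 0.00271). It passed in each of 20 alternative settings. Hist1h4i, Hist1h2ab, Hist1h3c, Hist1h3h and Hist2h2be also fell, and Hist2h3c2 rose with 13 and 20 counts in de novo cRel-/- Tregs and 2, 3 and 5 in cRel-/- pre-Tregs. Without pre-Treg cRel-/- replicate 2 the balance was the other way, with 4 higher and 3 lower: Hist1h1e, Hist1h2ai, Hist1h4c and Hist1h4n were called higher, and Hist1h4d, Hist2h2be and Hist3h2a lower. Of the 7 calls with all libraries, Hist1h4d and Hist2h2be were among these. The log2 fold change of Hist1h1e was 0.74 without that library and -0.48 with it, and that of Hist1h2ai 1.22 and -0.73. The count was 1 without either de novo cRel-/- library. Hist2h2be, which shares no 50-base window with another gene, fell in both genotypes: it was at 7.09 and 7.38 CPM in de novo and 20.4, 12.1 and 16.6 CPM in pre-Treg cRel-/- libraries, and at 8.45 and 6.90 CPM in de novo and 18.02 and 11.5 CPM in pre-Treg WT libraries.

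Few histone genes were called between splenic and de novo Tregs. In WT, 0 of 53 members were called in edgeR, where 7.45% of all genes were called (3.5% higher and 3.95% lower). For the same comparison limma-voom called 1 member and DESeq2 called 0. Without pre-Treg cRel-/- replicate 2 in the shared fit, 3 were called. In cRel-/-, 1 of 53 fell, Hist1h1b, at 2.02 and 0.75 CPM in splenic and 6.09 and 6.15 CPM in de novo Tregs (log2 fold change -2.17, SE 0.65, edgeR adjusted p = 0.0449), where 12.9% of all genes were called (6.48% higher and 6.39% lower). That call was lost without any 1 library other than a pre-Treg cRel-/- one and with limma-voom, which called Hist1h4n instead, and 4 members were called without pre-Treg cRel-/- replicate 2. The summed H4 level was 59.2 and 57.7 CPM in splenic and 32.1 and 38.7 CPM in de novo cRel-/- Tregs, and 59.4 and 65.1 CPM in splenic and 38.1 and 35.8 CPM in de novo WT Tregs. The stages did not overlap in H4 in either genotype, whereas the H2B sums lay between 34.9 and 42.7 CPM in all 8 of these libraries. Hist1h4c, an H4 gene, was at 9.84 and 9.41 CPM in splenic and 5.09 and 6.97 CPM in de novo cRel-/- Tregs, and at 7.37 and 7.67 CPM in splenic and 5.18 and 6.62 CPM in de novo WT Tregs. Of the cell cycle lists, 10 of 24 S phase genes and 20 of 20 G2 and mitosis genes fell in splenic over de novo Tregs in cRel-/-, and 0 and 0 did in WT in edgeR's test.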

How the data were processed

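RNA sequencing libraries of 13 samples were analysed, with 1 count table for each of the 3 stages. The authors deposited whole-number counts per gene, and per the submitters' processing notes the tools were FastQC, MultiQC, STAR 2.5.2, Picard 2.9.0, featureCounts of Subread 1.5.2 and limma, with the GRCm38 build. The annotation release, strandedness, read length and handling of multi-mapping reads are not stated. All 13 per-sample columns were used. Replicate numbers follow the titles, and the description field numbers some pre-Treg libraries differently.

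Tests were edgeR 4.0.16 quasi-likelihood fits in R 4.3.3 over all genes, with TMM scaling, filterByExpr (minimum count 10, minimum total 15) and Benjamini-Hochberg adjustment with a threshold of 0.05. Genotype tests were fitted within each stage, and stage tests, the genotype effect over all stages and the interaction on all 13 libraries over the 22048 shared genes. Fits were tested on simulated data. The alternatives were limma-voom (limma 3.58.1), DESeq2 1.42.0, RLE scaling, no filter, leaving out each library, a replicate block and other sets of libraries. Library totals were 13656304 to 35114430 counts, and a floor of 3 counts was 0.0853 to 0.223 CPM. CPM used whole-table totals and the TMM factors of each stage's own fit. Exact 95% intervals and floors cover counting error only. Transcripts came from GENCODE M21 and promoters from RefSeq GRCm38.p6. Named members were those called by genotype, the 3 highest per class by CPM per kb, and the 3 highest and lowest fold changes of each comparison, with others named after their values were seen. Members and gene lists were chosen with earlier results of these data known.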

Additional observations from a re-analysis of the deposited data

How the results depend on the processing

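The 3 calls of Hist1h4m (de novo Tregs, splenic Tregs, 1 coefficient for all stages) held in every alternative run. Every alternative started from the same deposited counts, so none of them tests how reads were split between Hist1h4m and Hist1h4n. In pre-Tregs, against 0 called members, DESeq2 called 1 (Hist1h1c), the fit of 6 group means 1 (Hist1h1c) and the replicate block 1 (Hist1h1b), and leaving out 1 library gave 0 to 0. In splenic Tregs, against 2, the fit of 6 group means called 1, the replicate block 3, crossed replicate pairs 5 (chosen after seeing the data), and leaving out 1 library 1 to 7. Deviations of libraries with the same title number correlated over genes at -0.17, -0.01 and -0.11 in pre-Tregs, de novo Tregs and splenic Tregs. These values cannot decide whether libraries were paired, since each genotype gives 1 difference per stage. In pre-Tregs the description field also numbers some libraries differently. With pre-Treg cRel-/- replicates 1 and 2 both left out, also chosen after seeing the data, the calls were 2 over all stages, 17 and 4 for de novo over pre-Tregs in WT and cRel-/-, and 4 and 5 for splenic over de novo Tregs in WT and cRel-/-. With limma-voom, 3 and 4 members were called for de novo over pre-Tregs in WT and cRel-/-, and 1 for splenic over de novo Tregs in WT. Leaving out 1 library gave 1 to 15 and 1 to 10 calls for de novo over pre-Tregs in WT and cRel-/-, and 0 to 3 and 0 to 4 for splenic over de novo Tregs. The causes were not tested. Counts of calls by setting, here and above, are not set against the share of all genes called in the same setting. They show how far the calls moved, and not whether histone genes moved apart from other genes. The log2 ratio of the splenic histone sum was -0.06, and 0.049 without Hist1h4d. Halving the even counts of pre-Treg cRel-/- replicate 1 changed no count of calls. Without pre-Treg cRel-/- replicate 2, Hist1h1e and Hist1h2ai were called higher in de novo over pre-Tregs in cRel-/- (log2 fold change 0.74 and 1.22), against uncalled values of -0.48 and -0.73 with it. Members with few counts, and copies that share most of their sequence, are limited by depth and by read assignment.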
